A study of Homo sapiens with 4 samples.

Results

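The genes of glycolysis and of the response to low oxygen were followed in LX-2, a human hepatic stellate cell line. Stellate cells are the main source of scar matrix in the injured liver. The group holds 38 genes picked by name, and all 38 had a row among the 63241 genes of the count table. Of these, 37 reached 1 scaled count per 1000000 counts (CPM) in at least 1 library and were analysed further. SLC16A1 and EGLN3 reached it through the BDS4 library alone, so the filter itself set their direction in every comparison with BDS4. CA9, which encodes a hypoxia-induced carbonic anhydrase, had 0 counts in every library, where a floor of 3 counts corresponds to between 0.126 and 0.178 CPM.

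Cells were starved for 24 h in 0.5% serum, and the deposited data hold 1 library for each of 4 conditions. The library labels end in numbers that are not all the same. The sources used here do not say whether further libraries were made. These were TGF-β (20 ng/mL) with BDS4 (5 µM), TGF-β with RVX-208 (5 µM), TGF-β without a test compound, and a control. Treatment lasted 24 h. TGF-β drives stellate cells towards a myofibroblast state in which they make collagen. RVX-208, also called apabetalone, blocks BET proteins with a preference for the second of their bromodomains. BDS4 has only a code name, and the title of the study speaks of inhibitors of the first bromodomain. The TGF-β library's label names DMSO and those of the control and of both compound libraries do not. A vehicle difference between TGF-β and control therefore cannot be told apart from TGF-β. Any vehicle difference between a compound library and TGF-β likewise cannot be told apart from the compound. With 1 library per condition no difference could be compared with variation between cultures. Brackets give 95% intervals for counting error alone. Genes are said to have risen or fallen where scaled counts of 2 libraries differed at least 2-fold with an interval that excluded 1. In bulk libraries, fewer cells of a type and less RNA per cell cannot be told apart.

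Total counts were between 17022369 and 22503094 per library. Mesenchymal markers were present, with VIM (vimentin) at 68215 to 83200 counts and COL1A1 at 2092 to 103889, while the stellate gene LRAT was at 0 in all 4 libraries. Markers of hepatocytes summed to between 1.62 and 3.80 CPM, those of epithelium to between 135 and 558 CPM, those of endothelium to between 12.2 and 15.7 CPM and those of leukocytes to between 13.2 and 35.9 CPM. The BDS4 library stood apart in mitochondrial ribosomal RNA, at 0.903% of counts, against 0.230% with RVX-208, 0.248% with TGF-β and 0.212% in the control. Its mitochondrial mRNA was 0.891% of counts, against 1.48%, 1.49% and 1.47% in the same order. Marker levels also set this library apart. COL1A1 had 102.6 CPM with BDS4, against 4705 CPM with TGF-β, and PDGFRB 5.98 CPM against 136 CPM, and 6 of 10 tested stellate markers fell and 1 rose. The epithelial markers summed to 135 CPM with BDS4, against 558 CPM with TGF-β, and 3 of 3 tested fell. KRT18 held most of that sum (111 CPM against 452 CPM), while EPCAM, KRT19 and CDH1 had at most 10 counts in any library. Of all genes, 14.5% were called higher and 17.7% lower in this comparison. The part of these differences in the results with BDS4 below was not tested.

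Glycolysis splits glucose into pyruvate in the cytosol. Glucose enters through transporters of the GLUT family, is phosphorylated and cleaved in the preparatory steps, and yields ATP in the payoff steps, after which lactate dehydrogenase turns pyruvate into lactate for export. In low oxygen the HIF-α subunits HIF-1α and HIF-2α escape hydroxylation by the prolyl hydroxylases and, with their partner ARNT, bind hypoxia response elements with the core ACGTG or GCGTG in genes of glycolysis, blood vessel growth and mitophagy. Many of these genes also answer to growth factors, amino acid stress and other signals in normal oxygen, and activated stellate cells are known to use glycolysis. No low-oxygen treatment is named in the labels, and protein was not measured here.

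Promoters of the members called in the comparisons of TGF-β with control or of BDS4 with TGF-β are printed for the 3 that RefSeq's table (GRCh38.p14) holds, with 250 bases before the start and 50 after it, 5′ to 3′ on the gene's own strand. Capitals mark the cores ACGTG and GCGTG on either strand (CACGT and CACGC when read from the other strand). EGLN3 lies at chr14:33951025-33951324, minus strand, ADM at chr11:10304823-10305122, plus strand, and BNIP3 at chr10:131981874-131982173, minus strand.
EGLN3: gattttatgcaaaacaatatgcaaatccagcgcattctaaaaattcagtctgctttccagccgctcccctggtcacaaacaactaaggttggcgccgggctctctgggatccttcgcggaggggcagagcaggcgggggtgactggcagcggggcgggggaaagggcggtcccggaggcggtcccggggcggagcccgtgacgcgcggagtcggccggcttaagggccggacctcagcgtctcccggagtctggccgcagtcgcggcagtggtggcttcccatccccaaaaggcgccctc
ADM: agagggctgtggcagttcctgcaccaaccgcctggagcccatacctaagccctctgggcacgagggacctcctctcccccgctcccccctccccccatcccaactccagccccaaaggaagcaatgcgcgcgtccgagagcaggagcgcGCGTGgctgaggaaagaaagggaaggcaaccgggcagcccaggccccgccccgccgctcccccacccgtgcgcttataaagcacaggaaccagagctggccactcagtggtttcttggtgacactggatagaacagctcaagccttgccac
BNIP3: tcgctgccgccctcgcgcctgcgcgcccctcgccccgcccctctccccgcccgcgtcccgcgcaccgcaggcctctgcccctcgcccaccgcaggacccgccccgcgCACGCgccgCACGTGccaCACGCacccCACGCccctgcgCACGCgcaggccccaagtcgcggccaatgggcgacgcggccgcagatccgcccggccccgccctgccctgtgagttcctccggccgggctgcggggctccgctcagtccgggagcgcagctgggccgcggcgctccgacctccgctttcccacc
The BNIP3 window held 6 such cores between -143 and -104 from the start, 2 of them overlapping on opposite strands in 1 palindrome (CACGTG). The ADM window held 1, at -101, and none was found in the EGLN3 window. Among the 33 members in the table, 14 promoters held ACGTG (42.4%), 18 held GCGTG (54.5%) and 25 held either (75.8%). Among all 27305 promoters of this length the shares were 21.6%, 36.3% and 48.4%. A match of these letters is a description and not a bound site.

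In the comparison of TGF-β with control, which asks what the cytokine changed, ADM and BNIP3 fell and no member rose. ADM, which encodes the vasodilator peptide adrenomedullin, had 6.34 CPM with TGF-β, against 41.6 CPM in the control, a 6.56-fold fall (5.49 to 7.88). BNIP3, a mitophagy receptor of the outer mitochondrial membrane, had 47.6 CPM, against 114 CPM in the control, a 2.40-fold fall (2.24 to 2.58). The 2 falls are 2 of 37 members, beside 9.68% of all 16099 genes called in either direction, 5.32% called higher and 4.37% called lower. No glycolytic enzyme passed the rule. Among those at 30 CPM or more, the lowest ratios were those of TPI1 (triosephosphate isomerase), with a ratio of 0.599 to control (0.586 to 0.612), and PKM (pyruvate kinase), with 0.683 (0.673 to 0.693).

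With BDS4 on top of TGF-β, 5 members rose and none fell. They were the glucose transporter SLC2A3, the oxygen-sensing hydroxylase EGLN3, the stress-responsive NDRG1, ADM and BNIP3. NDRG1 reached 249 CPM, against 44.9 CPM with TGF-β, a 5.55-fold rise (5.19 to 5.95), and ADM reached 40.2 CPM against 6.34 CPM, a 6.33-fold rise (5.29 to 7.63). With EGLN3 left out by a filter at 5 CPM, 4 rose. The 5 called members are 5 of 37, beside 32.2% of all genes called in either direction and 14.5% called higher and 17.7% called lower, so the share of members called was below that of all genes. The median log2 ratio of the members was 0.42, beside -0.01 over all genes tested. With RVX-208 on top of TGF-β, 0 of 37 members passed the rule, beside 8.19% of all genes called in either direction, 2.94% higher and 5.25% lower. The members' median was 0.15, beside 0.00 over all genes tested.

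**Figure D1:**
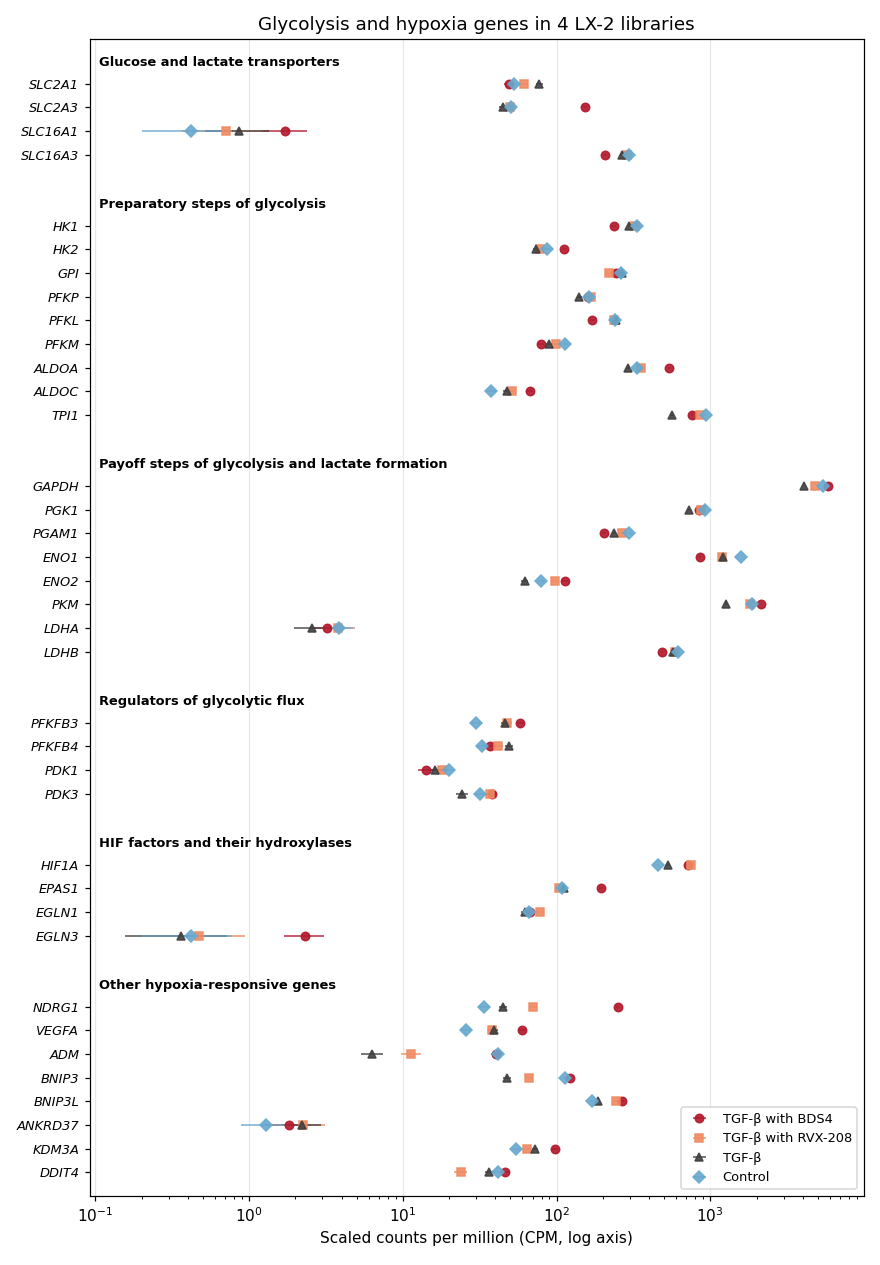
Level of each of the 37 analysed members in the 4 libraries, in scaled CPM on a log axis, grouped by role. Each point is 1 library and bars are 95% counting intervals. ADM spans 6.34 to 41.6 CPM and NDRG1 33.8 to 249 CPM, while most glycolytic enzymes lie within 2-fold across libraries.

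Of the transporters, SLC2A3 (GLUT3), a high-affinity glucose carrier, had 153 CPM with BDS4, 49.7 CPM with RVX-208, 44.9 CPM with TGF-β and 50.9 CPM in the control. The BDS4 library alone was high, and the ratio to TGF-β was 3.41 (3.18 to 3.67), to RVX-208 3.08 (2.86 to 3.33) and to control 3.01 (2.82 to 3.22). SLC2A1 (GLUT1), the widespread basal glucose carrier, ran the other way, with 48.8 CPM with BDS4, 61.0 CPM with RVX-208, 77.5 CPM with TGF-β and 52.7 CPM in the control. TGF-β alone was its highest library, 1.47-fold the control (1.37 to 1.58), and the BDS4 library stood at 0.630 of TGF-β (0.582 to 0.681), both within the 2-fold rule. SLC16A3 (MCT4), the lactate exporter of glycolytic cells, had 208 CPM with BDS4, 288 CPM with RVX-208, 266 CPM with TGF-β and 296 CPM in the control. SLC16A1 (MCT1), a carrier that moves lactate in both directions, was near the detection limit at 35, 12, 19 and 10 counts in the same order of libraries. It rose with BDS4 against RVX-208 (2.41-fold, 1.22 to 5.09) and against control (4.10-fold, 1.99 to 9.28), and its ratio to TGF-β was 1.99 (1.11 to 3.69), but it was analysed only because the BDS4 library lay over 1 CPM.

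The balance of the glucose carriers was also set out per length. From the FPKM values that the authors deposited, SLC2A3 made up 76.3% of the summed SLC2A1 and SLC2A3 level with BDS4 (75.0 to 77.6), 45.5% with RVX-208 (43.2 to 47.8), 37.3% with TGF-β (35.4 to 39.1) and 49.7% in the control (47.8 to 51.7). SLC2A3 led with BDS4, and SLC2A1 led or was level in the other 3 libraries. With exon lengths from GENCODE 29 in place of the deposited ones, these shares of SLC2A3 were 70.7%, 38.4%, 30.8% and 42.6%.

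Hexokinase, the first enzyme, differed by isoform. HK2, the inducible hexokinase, had 112 CPM with BDS4, 77.8 CPM with RVX-208, 73.8 CPM with TGF-β and 87.1 CPM in the control. HK1, the constitutive hexokinase, had 236 CPM with BDS4, 322 CPM with RVX-208, 295 CPM with TGF-β and 334 CPM in the control. HK2 was highest and HK1 lowest with BDS4, at 1.52 (1.43 to 1.62) and 0.798 (0.769 to 0.829) of their TGF-β levels, both inside the 2-fold rule. The HK2 share of the summed per-length level was 60.5% with BDS4, 43.6% with RVX-208, 44.5% with TGF-β and 45.5% in the control. It was 33.1%, 20.1%, 20.6% and 21.3% in the same order with GENCODE 29 exon lengths, so which hexokinase leads with BDS4 depends on the length used, while BDS4 had the highest HK2 share either way.

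The 3 phosphofructokinase subunits, which catalyse the committed step, stayed within 2-fold in all 6 comparisons. PFKP, the platelet-type subunit, had 160 CPM with BDS4, 168 CPM with RVX-208, 141 CPM with TGF-β and 162 CPM in the control. PFKL, the liver-type subunit, had 171 CPM with BDS4, 237 CPM with RVX-208, 243 CPM with TGF-β and 239 CPM in the control, and PFKM, the muscle-type subunit, ranged from 79.1 CPM with BDS4 to 114 CPM in the control. Per length, PFKP made up 46.2% of the 3 with BDS4, 40.2% with RVX-208, 36.4% with TGF-β and 37.998% in the control. GPI, which turns glucose 6-phosphate into fructose 6-phosphate, lay between 218 and 266 CPM.

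Further along, ALDOA, the main aldolase, had 538 CPM with BDS4, 355 CPM with RVX-208, 291 CPM with TGF-β and 334 CPM in the control. Its BDS4 level was 1.85-fold that of TGF-β (1.79 to 1.91), the largest ratio to TGF-β among the 17 enzymes and still below the rule. ALDOC, the second aldolase, had 66.8 CPM with BDS4, 51.2 CPM with RVX-208, 47.5 CPM with TGF-β and 37.7 CPM in the control, and was the only one of the 17 enzymes whose interval lay above 1 with TGF-β against control (1.26, 1.15 to 1.38). TPI1 had 760 CPM with BDS4, 863 CPM with RVX-208, 561 CPM with TGF-β and 936 CPM in the control. The TGF-β library alone was low for TPI1, and its ratio with RVX-208 against TGF-β was 1.54 (1.502 to 1.58).

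Among payoff enzymes, GAPDH, the dehydrogenase often used as a reference gene, had 5829 CPM with BDS4, 4802 CPM with RVX-208, 4070 CPM with TGF-β and 5372 CPM in the control. Its ratios were 1.43 with BDS4 against TGF-β (1.42 to 1.44), 1.18 with RVX-208 against TGF-β (1.17 to 1.19) and 0.758 with TGF-β against control (0.751 to 0.764). PKM had 2144 CPM with BDS4, 1812 CPM with RVX-208, 1270.3 CPM with TGF-β and 1860.1 CPM in the control, so that TGF-β alone was again the low library. PGK1, which makes the first ATP of the payoff phase, had 845 CPM with BDS4, 872 CPM with RVX-208, 726 CPM with TGF-β and 922 CPM in the control.

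ENO1, the widespread enolase, was not lowest with TGF-β alone. ENO1 had 857 CPM with BDS4, 1188 CPM with RVX-208, 1202 CPM with TGF-β and 1592 CPM in the control. The control was high, the BDS4 library low, and BDS4 stood at 0.539 of control (0.529 to 0.548). ENO2, the neuron-type enolase that is also a hypoxia target, had 114 CPM with BDS4, 97.4 CPM with RVX-208, 62.0 CPM with TGF-β and 79.7 CPM in the control. Its ratio to TGF-β was 1.84 with BDS4 (1.72 to 1.96) and 1.57 with RVX-208 (1.46 to 1.69). Its share of the summed enolase level per length was 10.7% with BDS4 (10.3 to 11.1), 6.89% with RVX-208 (6.57 to 7.22), 4.44% with TGF-β (4.21 to 4.68) and 4.32% in the control (4.13 to 4.52). PGAM1, the mutase before enolase, had its lowest level with BDS4 (204 CPM) and its highest in the control (298 CPM).

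For lactate dehydrogenase, LDHB had 487 CPM with BDS4, 587 CPM with RVX-208, 569 CPM with TGF-β and 620 CPM in the control. LDHA, the subunit usually prominent in glycolytic and hypoxic cells, had 66, 64, 57 and 92 counts in the same order, or 2.58 to 3.85 CPM. Rows of its pseudogenes, which are near-identical copies, held 376, 326, 369 and 482 counts, more than the gene's own row in every library. The LDHA level and its share against LDHB (at most 0.190% by the deposited FPKM and 0.319% with GENCODE 29 exon lengths) are therefore uncertain, and the sources used here do not say how reads matching several places were counted.

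The 17 enzymes from hexokinase to lactate dehydrogenase together took 1.21% of all counts with BDS4, 1.19% with RVX-208, 1.02% with TGF-β and 1.41% in the control. Without GAPDH, which holds the largest share, they took 0.662%, 0.713%, 0.614% and 0.836% in the same order. Both sums were lowest with TGF-β and highest in the control. With TGF-β against control, 14 of 17 enzymes had an interval below 1 and 1 had it above, with a median log2 ratio of -0.34, beside 28.6% of all genes below 1 and 27.1% above it. For the 16 enzymes at 30 CPM or more these were 13 below 1 (81.2%), beside 35.1% of the 7969 genes at 30 CPM or more. For 1 enzyme it lay above 1, beside 35.0%. Small differences exclude 1 more readily at high counts, and enzymes such as GAPDH (5372 CPM in the control) stand far above 30 CPM. The enzymes and the 7969 genes were therefore not matched for level. With RVX-208 against TGF-β, 12 of 17 enzymes had an interval above 1 and 1 below, beside 27.0% and 26.7% of all genes. At 30 CPM or more, 11 of the 16 had an interval above 1 (68.8%), beside 40.2%, and 1 below it, beside 29.2%. With BDS4 against TGF-β, 9 of 17 had it above 1 and 7 below, beside 39.4% and 39.5% of all genes, or 47.1% and 42.8% of those at 30 CPM or more. No enzyme of the 17 reached the 2-fold rule in any of the 6 comparisons. The comparisons with TGF-β as the second library share it with each other and with the comparison of TGF-β with control. TGF-β alone was the lowest library for 9 of the 17 enzymes, beside 21.7% of all genes, and the control the highest for 8, beside 25.7%.

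**Figure D2:**
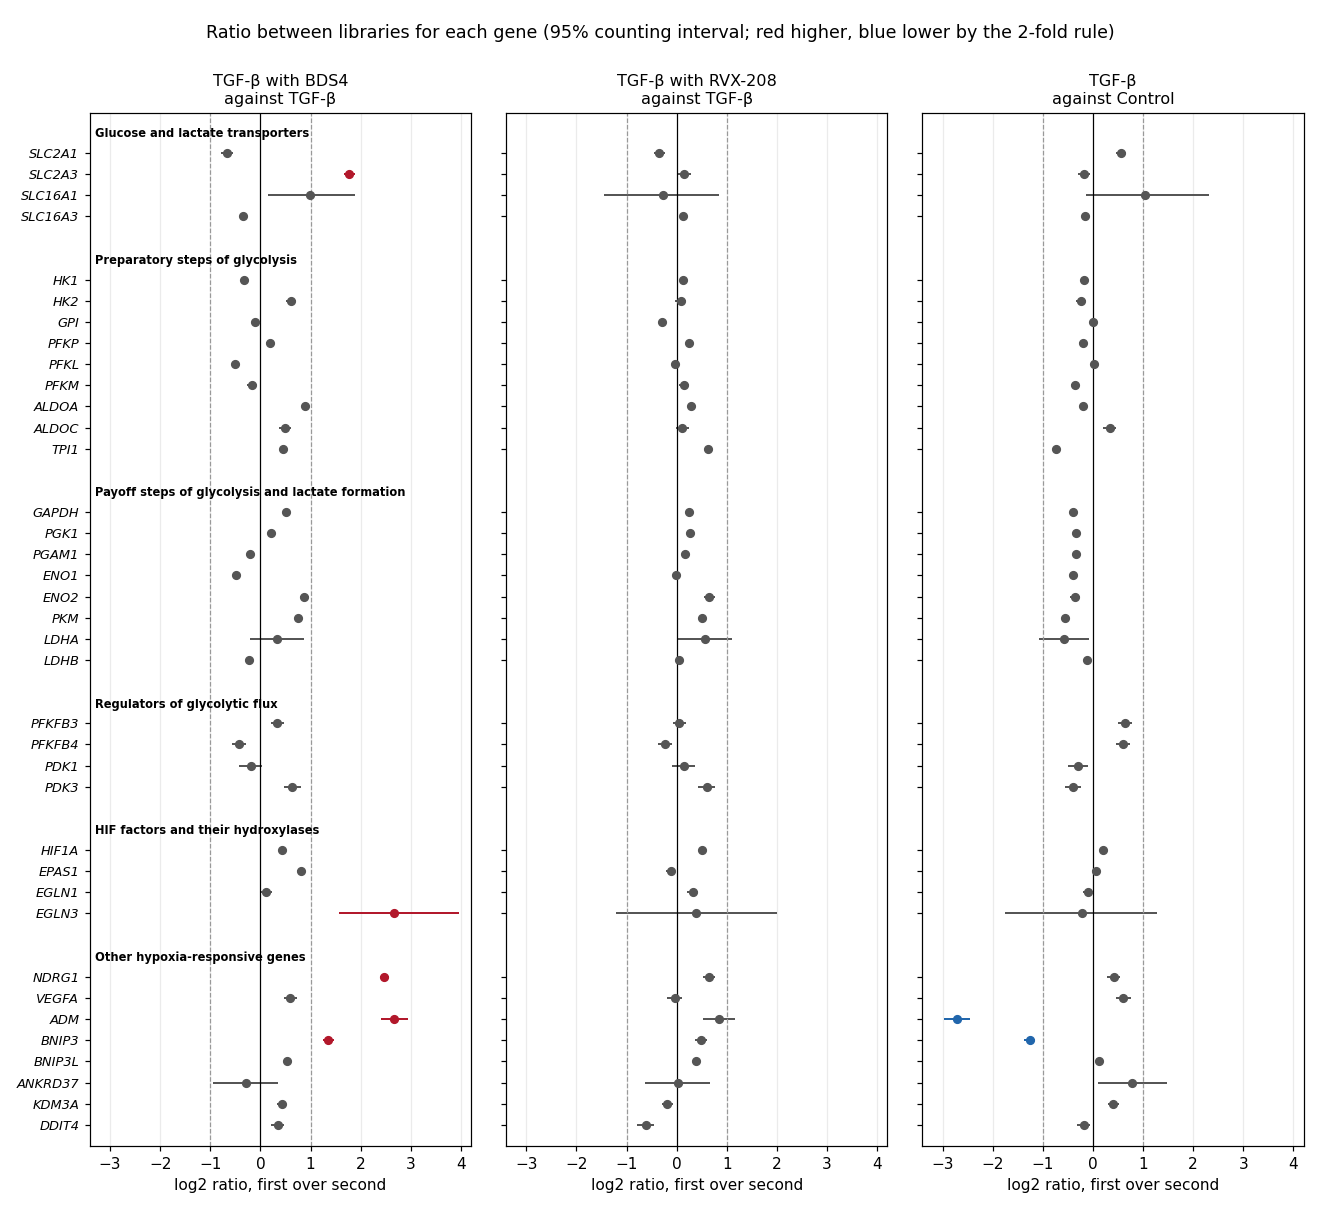
log2 ratio of each member, first library over second, with its 95% counting interval, for BDS4 against TGF-β, RVX-208 against TGF-β and TGF-β against control. Red and blue points passed the 2-fold rule (dashed lines): 5 rose with BDS4, none with RVX-208, and ADM and BNIP3 fell with TGF-β.

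The bifunctional enzymes that make the phosphofructokinase activator fructose 2,6-bisphosphate were both higher with TGF-β than in the control, below the 2-fold rule. PFKFB3 had 58.2 CPM with BDS4, 47.8 CPM with RVX-208, 46.1 CPM with TGF-β and 29.7 CPM in the control. Its BDS4 level was 1.96-fold the control (1.78 to 2.15), just under the rule. PFKFB4 had 36.7 CPM with BDS4, 41.7 CPM with RVX-208, 49.2 CPM with TGF-β and 32.5 CPM in the control, so it was highest with TGF-β alone and lower with either compound. PDK1 and PDK3 are kinases that switch off pyruvate dehydrogenase and so hold pyruvate in the cytosol. PDK1 had 14.2 CPM with BDS4, 17.9 CPM with RVX-208, 16.3 CPM with TGF-β and 20.1 CPM in the control. PDK3 had 37.9 CPM with BDS4, 36.8 CPM with RVX-208, 24.3 CPM with TGF-β and 31.9 CPM in the control, with ratios to TGF-β of 1.56 (1.39 to 1.74) with BDS4 and 1.51 (1.35 to 1.70) with RVX-208.

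Of the oxygen-sensing genes, HIF1A, which encodes HIF-1α, had 712 CPM with BDS4, 745 CPM with RVX-208, 528 CPM with TGF-β and 458 CPM in the control. Both compound libraries were above TGF-β, by 1.35-fold (1.32 to 1.38) with BDS4 and 1.41-fold (1.38 to 1.45) with RVX-208. EPAS1, which encodes HIF-2α, had 195 CPM with BDS4, 103 CPM with RVX-208, 112 CPM with TGF-β and 108 CPM in the control. Only the BDS4 library was high for EPAS1, at 1.89-fold the RVX-208 level (1.78 to 1.996), just under the rule. Per length HIF1A was the larger of the pair in all 4 libraries, at 81.1% of their sum with BDS4, 89.4% with RVX-208, 84.7% with TGF-β and 83.3% in the control.

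EGLN1 (PHD2), the main hydroxylase that marks HIF-α for degradation, lay between 62.2 and 77.6 CPM. EGLN3 (PHD3), a hydroxylase whose own gene is a known HIF target, had 47 counts with BDS4, against 8 with RVX-208, 8 with TGF-β and 10 in the control. The BDS4 library alone was high, and the rise against TGF-β was 6.36-fold (2.98 to 15.6), against RVX-208 4.85-fold (2.27 to 11.9) and against control 5.504-fold (2.74 to 12.2). Its level there was 2.30 CPM, so that EGLN3 made up 3.77% of the pair's per-length level (2.78 to 4.98) and less than 1% in the other libraries. As EGLN3 passed the filter through that library alone, its rise is a description of these counts.

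Among the other hypoxia-responsive genes, NDRG1, a differentiation and stress gene, had 249 CPM with BDS4, 70.1 CPM with RVX-208, 44.9 CPM with TGF-β and 33.8 CPM in the control. All 4 libraries differed beyond counting error. BDS4 stood 3.56-fold above RVX-208 (3.34 to 3.80) and 7.38-fold above control (6.85 to 7.96), and RVX-208 was 2.07-fold above control (1.90 to 2.27), which dropped below the rule when scaled by total counts (log2 ratio 0.95). VEGFA, the main angiogenic growth factor, had 59.2 CPM with BDS4, 38.1 CPM with RVX-208, 39.1 CPM with TGF-β and 25.8 CPM in the control. It rose with BDS4 against control (2.30-fold, 2.08 to 2.54), with an intermediate level in the other libraries.

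ADM had 40.2 CPM with BDS4, 11.3 CPM with RVX-208, 6.34 CPM with TGF-β and 41.6 CPM in the control. BDS4 and control were high and overlapped in their counting intervals (ratio 0.966, 0.879 to 1.06), and TGF-β and RVX-208 were low, with RVX-208 3.66-fold below control (3.14 to 4.30). BNIP3 had 122 CPM with BDS4, 66.7 CPM with RVX-208, 47.6 CPM with TGF-β and 114 CPM in the control. It too was low with TGF-β and RVX-208 and high in the other libraries, with a 2.56-fold rise of BDS4 over TGF-β (2.38 to 2.75) and a ratio of 1.06 to control (1.01 to 1.12). Its RVX-208 level was 1.40-fold that of TGF-β (1.29 to 1.53) and 0.584 of control (0.544 to 0.626), neither past the rule. BNIP3L, its relative in mitophagy, was at 268 CPM with BDS4, 243 CPM with RVX-208, 186 CPM with TGF-β and 170 CPM in the control, without the dip with TGF-β. Per length, BNIP3 made up 33.5% of the pair with BDS4, 23.3% with RVX-208, 22.1% with TGF-β and 42.7% in the control.

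KDM3A, a histone demethylase gene induced by hypoxia, had 97.2 CPM with BDS4, 64.0 CPM with RVX-208, 72.7 CPM with TGF-β and 54.8 CPM in the control. DDIT4 (REDD1), an inhibitor of mTORC1 signalling that also answers to amino acid stress, had 46.3 CPM with BDS4, 23.8 CPM with RVX-208, 36.6 CPM with TGF-β and 41.6 CPM in the control. RVX-208 was its low library, and BDS4 stood 1.95-fold above it (1.73 to 2.19), just under the rule. ANKRD37, an ankyrin-repeat gene induced by hypoxia, had between 31 and 49 counts per library. It shares 35.2% of its exon bases with UFSP2 on the opposite strand, and the sources used here do not state whether counting used strand. The same limit holds for DDIT4, which shares 41.2% with DDIT4-AS1 on the opposite strand. On the same strand, ALDOA shares 42.3% of its exon bases with AC093512.2 and LDHB 33.4% with AC010197.2, so that counts of both depend on how shared reads were assigned.

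**Figure D3:**
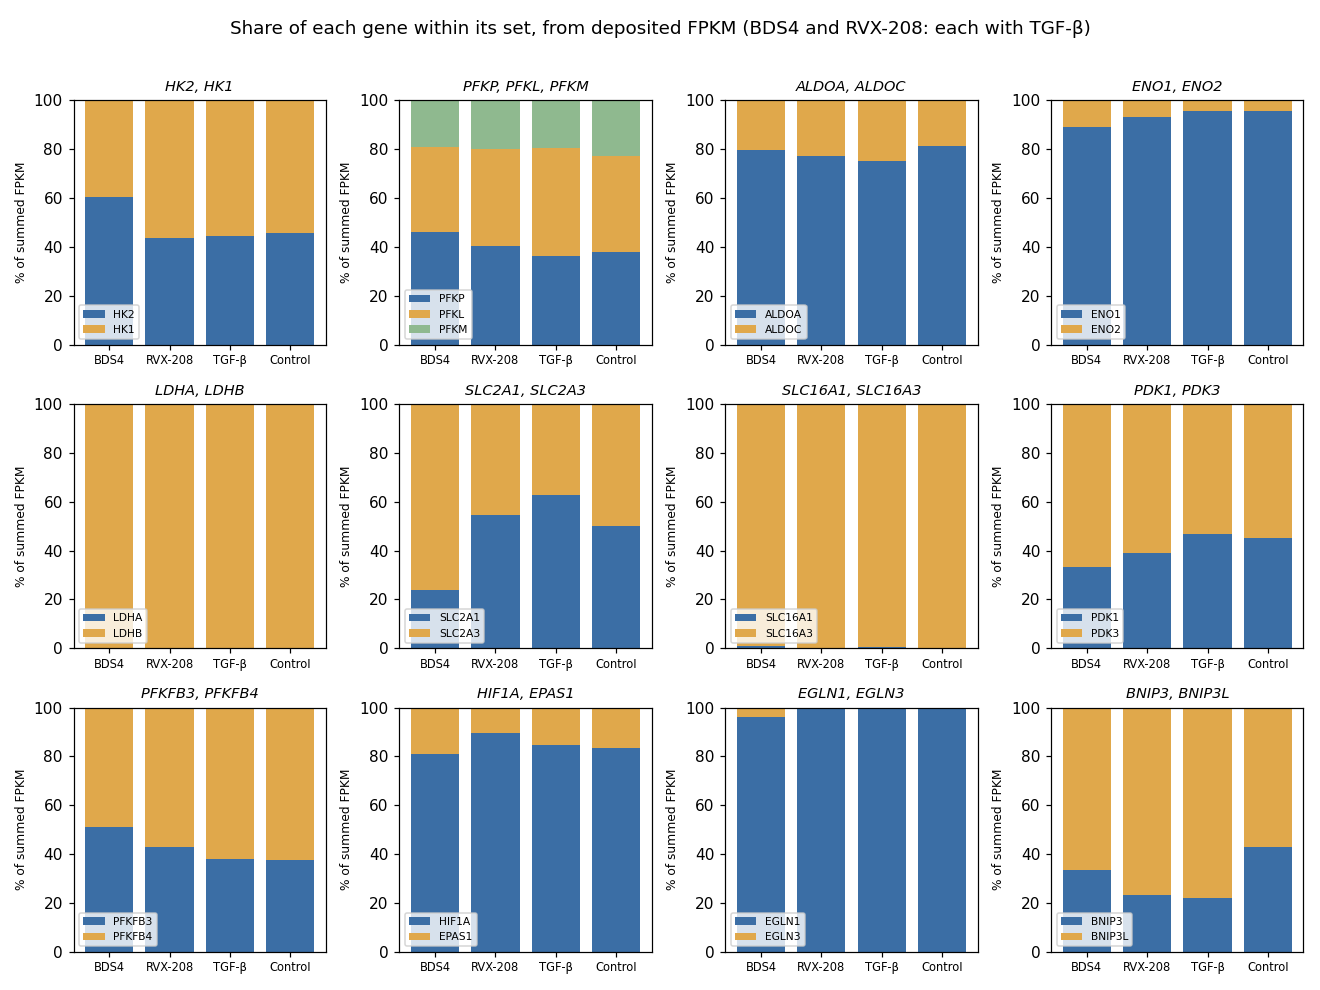
Share of each gene in the summed FPKM of its isozyme set or pair, in each library, from the deposited FPKM. SLC2A3 makes up 76.3% with BDS4 and at most 49.7% elsewhere, ENO2 10.7% with BDS4 and 4.32% in the control, and BNIP3 22.1% with TGF-β against 42.7% in the control.

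The compounds, both at 5 µM for 24 h with TGF-β, differed by the 2-fold rule in 5 of 37 members, namely SLC2A3, SLC16A1, EGLN3, NDRG1 and ADM, each higher with BDS4. For SLC16A1 and EGLN3 the filter had set that direction, and at 5 CPM or more the other 3 were left. The 5 of 37 stood beside 24.8% of all genes called in either direction, 11.7% called higher and 13.1% called lower. The 17 enzymes had a median log2 ratio of -0.07 between the compounds, beside -0.01 over all genes. The lowest ratio between the compounds was that of SLC16A3, at 0.720 (0.690 to 0.750), and that of ENO1 was 0.722 (0.707 to 0.736). HIF1A differed little, at 0.956 (0.934 to 0.979), and PGK1 stood at 0.968 (0.947 to 0.990).

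Against control, BDS4 had 5 members higher and 0 lower, namely SLC2A3, SLC16A1, EGLN3, NDRG1 and VEGFA, beside 33.1% of all genes called, 14.9% higher and 18.2% lower. Again the filter had set the direction of SLC16A1 and EGLN3, and 3 were left at 5 CPM or more. RVX-208 had 1 higher, NDRG1, and 1 lower, ADM, beside 12.3% of all genes called, 5.39% higher and 6.88% lower. At a fold of 1.5 the members called in either direction were 7 with TGF-β against control, beside 19.1% of all genes, 14 with BDS4 against TGF-β, beside 50.9%, and 6 with RVX-208 against TGF-β, beside 17.1%. They were 11 between the compounds, beside 42.9%, 13 with BDS4 against control, beside 52.6%, and 7 with RVX-208 against control, beside 23.5%.

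**Figure D4:**
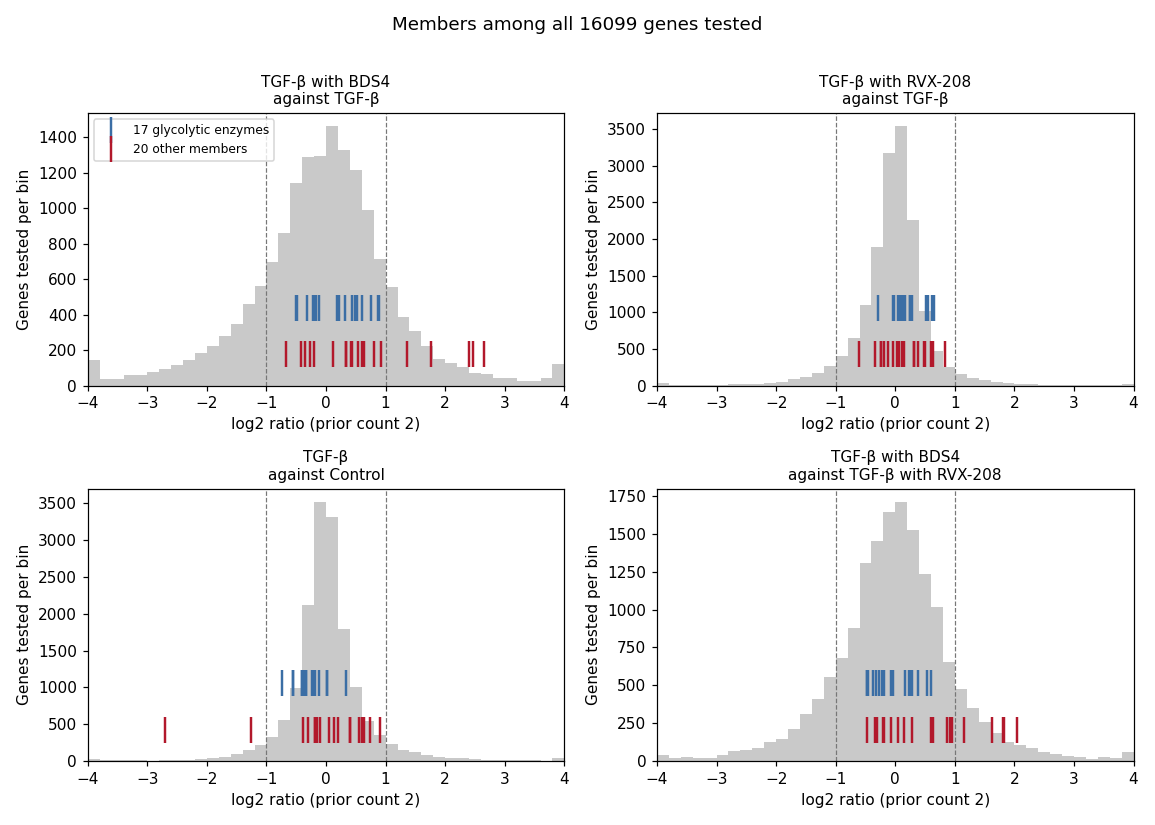
Distribution of the log2 ratio (prior count 2) over all 16099 genes tested in grey, with the 17 glycolytic enzymes as blue ticks and the 20 other members as red ticks; the outermost bins also hold all genes beyond the axis. No enzyme passes the dashed 2-fold lines in any panel, and the members beyond them in the BDS4 panel are all on the higher side.

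Other genes of these pathways showed calls in both directions. Among 8 further components of HIF regulation, 7 were tested, and 1 rose and 2 fell with BDS4 against TGF-β, beside 14.5% and 17.7% of all genes. With BDS4 against TGF-β, CITED2, which competes with HIF for its coactivator, rose 2.61-fold, to 82.5 CPM against 31.6 CPM, while ARNT2, a partner of HIF-α, fell to 7.99 CPM against 40.2 CPM and EGLN2, another prolyl hydroxylase, to 14.9 CPM against 36.1 CPM. CITED2 fell with TGF-β to 31.6 CPM, against 109.5 CPM in the control, and had 30.9 CPM with RVX-208, so that it was low in the same libraries as ADM. ARNT itself lay between 25.1 and 31.5 CPM. Of 35 further hypoxia-responsive genes, 33 were tested, and with BDS4 against TGF-β 7 rose and 7 fell, beside 14.5% and 17.7% of all genes, with a median log2 ratio of 0.10. TFRC, the transferrin receptor, rose to 1048 CPM against 316 CPM, and AK4, a mitochondrial adenylate kinase, fell to 6.33 CPM against 39.8 CPM. With RVX-208 against TGF-β, 0 rose and 2 fell, beside 2.94% and 5.25% of all genes, one of them LOX, a collagen cross-linking enzyme, at 43.5 CPM against 95.7 CPM. With TGF-β against control, 4 rose and 0 fell, beside 5.32% and 4.37% of all genes, among them BHLHE40, a circadian repressor, at 786 CPM against 130 CPM.

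The following counts, all for BDS4 against TGF-β, stand beside 14.5% of all genes called higher and 17.7% called lower. In the serine branch 2 of 6 rose, PSAT1 to 586 CPM against 157 CPM and MTHFD2 to 578 CPM against 193 CPM. In the glycogen and hexosamine branches 4 of 13 rose and 0 fell, including UAP1, which completes UDP-N-acetylglucosamine, to 509 CPM against 172 CPM, and GFPT2, the entry enzyme, to 772 CPM against 313 CPM. GFPT2 had also risen with TGF-β, to 313 CPM against 92.5 CPM in the control. In the pentose phosphate pathway 0 of 7 were called in this comparison. Among the genes of pyruvate entry into mitochondria 1 of 10 rose and 0 fell. The risen gene was MPC1, a subunit of the pyruvate carrier, at 26.5 CPM against 12.5 CPM. Most of these 10 went the other way, with a median log2 ratio of -0.29. Their interval lay below 1 for 6 and above 1 for 3, beside 39.5% and 39.4% of all genes. Of 10 tested genes for other glycolytic isozymes and regulators, 1 rose and 1 fell. Of 7 tested genes of sugar and lactate transport, 2 rose and 1 fell. The 2 were the carrier SLC2A13, at 66.4 CPM against 15.6 CPM, and BSG, at 495 CPM against 247 CPM. BSG is not a carrier itself but the chaperone of MCT1 and MCT4.

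ATF4 is the transcription factor of the amino acid stress response, and DDIT4 is also among its targets. Of 15 tested genes of this response, ATF4 included, 8 rose and 1 fell with BDS4 against TGF-β, beside 14.5% and 17.7% of all genes, with a median log2 ratio of 1.11. ATF4 itself was among the 8, at 158 CPM against 73.5 CPM. ASNS (asparagine synthetase) stood at 1034 CPM against 46.9 CPM. With RVX-208 against TGF-β 1 of 15 rose and 0 fell (median -0.11), beside 2.94% and 5.25% of all genes, and with TGF-β against control 0 were called, beside 9.68%. The part of this response in the members' changes was not tested.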

How the data were processed

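RNA was sequenced from 4 LX-2 libraries, 1 per condition. The authors deposited raw whole-number counts per gene, which have no normalization, and FPKM values made with StringTie 1.3.0 per the series' design text. The submitters' processing notes name CASAVA 1.8, TopHat2 2.0.6 and the build GRCh38. For the counting program, annotation and strand setting, nothing is given in the sources used here.

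Columns were matched to samples through the description labels. Counts were scaled with TMM factors (edgeR 4.0.16, R 4.3.3) of 0.943 with BDS4, 0.989 with RVX-208, 1.01 with TGF-β and 1.06 in the control, taken over genes at 1 unscaled CPM. Genes at 1 scaled CPM in at least 1 library were kept (16099). Ratios have conditional exact (Clopper-Pearson) intervals. Median log2 ratios use a prior count of 2. With 1 library per group no test across replicates was possible, and no p-value is given. The calling rule was first checked on counts simulated with counting error alone, so that check says nothing about variation between cultures. Levels of different genes were compared per length, through the deposited FPKM and, as an alternative, through GENCODE 29 exon lengths. Sums over gene lists, and the gene named as the largest part of such a sum, were taken from counts or CPM without a length. Otherwise only a gene and its own pseudogene rows were set side by side as counts. For the 37 members with counts, the gene lengths implied by FPKM were 1.02 to 4.81 times the exon length in GENCODE 29 (median 1.79), and for the 33 members with 200 or more counts in a library each gene's length was the same across libraries to within 0.00019%. Ratios between libraries are free of this length, and shares within isozyme sets are not. Positions and exon sharing came from GENCODE 29.

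The members and all gene lists were chosen with earlier results of these data known. All 38 members are named. From each further list at most 3 called genes per comparison were eligible, those with the largest ratios at 10 CPM or more. ARNT and ATF4 were named outside this rule, and ARNT was chosen after its values were seen. The 30 CPM level used for the enzymes was also chosen after the data were seen. Python 3.11.15, numpy 2.4.6, scipy 1.17.1, pandas 2.3.3 and matplotlib 3.10.9 were used, and DESeq2 1.42.0 for alternative size factors.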

Additional observations from a re-analysis of the deposited data

How the results depend on the processing

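No paired analysis was possible because each group has 1 library. For single members, 664 of 666 results kept their call under total-count scaling, DESeq2 size factors and pseudogene rows summed into their genes. Both exceptions came under total-count scaling: NDRG1 with RVX-208 against control lost its call (log2 ratio 0.95), and ENO1 with BDS4 against control became called as lower (-1.06). That scaling shifts all log2 ratios alike, by -0.17 for BDS4 against control, -0.10 for RVX-208 against control and -0.10 or less in size elsewhere. DESeq2 factors shifted them by no more than 0.0231 in size. Members without counted pseudogene rows could not change when such rows were summed. The 664 therefore holds many results that had little or no room to change.

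Counts of called members depended on the fold chosen. At 1.5-fold they were 7 with TGF-β against control (2 at 2-fold), 14 with BDS4 against TGF-β (5), 6 with RVX-208 against TGF-β (0), 11 between the compounds (5), 13 with BDS4 against control (5) and 7 with RVX-208 against control (2). At 3-fold 1 was left with TGF-β against control and 1 with RVX-208 against control. With BDS4 against TGF-β, SLC2A3, EGLN3, NDRG1 and ADM stayed above 3-fold and BNIP3 did not. Shares of all genes called were taken only at 2-fold and 1.5-fold with the 1 CPM filter. Counts of members at other settings have no such share beside them. A filter at 5 CPM removed EGLN3, SLC16A1, LDHA and ANKRD37 and left 3 between the compounds and 3 with BDS4 against control. Total-count scaling left 1 with RVX-208 against control. The members' median log2 ratio was -0.25 under total-count scaling with TGF-β against control (main value -0.18), 0.073 between the compounds (0.14), -0.014 with BDS4 against control (0.16) and -0.12 with RVX-208 against control (-0.02). The sign for BDS4 against control thus turned, while the log2 ratios of all genes shifted by the same -0.17. Taken as a mean it was 0.29 between the compounds and 0.33 with BDS4 against control. Depth limits EGLN3, SLC16A1, ANKRD37 and LDHA, with fewer than 100 counts in every library.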

Other observations

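Rows of pseudogenes of some members held counts. LDHAP4 held 330 counts with BDS4, 279 with RVX-208, 315 with TGF-β and 424 in the control, against 66, 64, 57 and 92 for LDHA. For TPI1 the pseudogene rows held 18.1%, 13.4%, 18.0% and 13.9% of the summed counts in the same order, and for BNIP3 they held 11.7%, 13.0%, 10.3% and 13.2%. For ENO1 they held 0.840%, 1.802%, 2.04% and 1.003%. Summing these rows into their genes ended no call.

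TIGAR, a phosphatase that lowers fructose 2,6-bisphosphate, had 99.2 CPM with BDS4, 66.2 CPM with RVX-208, 59.6 CPM with TGF-β and 39.7 CPM in the control, the same order as PFKFB3, which makes that activator. PDP2, a phosphatase that switches pyruvate dehydrogenase back on, had 38.2 CPM with BDS4, 11.9 CPM with RVX-208, 31.0 CPM with TGF-β and 33.9 CPM in the control. RVX-208 was its low library, as it was for DDIT4. TIGAR was chosen after its values were seen.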
